A study of Homo sapiens with 9 samples.

Results

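Among the genes of H1 human embryonic stem cells that nearly disappear when the cells leave naive culture, 8 were followed here: SPIC, BTK, ITGAM, PRAME, SLC12A3, ATP6V1B1, FAM151A and OLAH. They were found by symbol, and all 8 are among the 40332 gene symbols of the count table. They were picked because earlier results of these same data showed their loss, so that loss is described without a test. H1 is an established wild-type line, and RNA-seq was made from 3 libraries in each of 3 cultures: N2B27 basal medium with 5 µM EPZ-6438 for 3 days, N2B27 alone, and PXGL. PXGL keeps human pluripotent cells in a naive state by blocking MEK, tankyrase and PKC in the presence of the cytokine LIF, and EPZ-6438 blocks the catalytic activity of EZH2, the methyltransferase of Polycomb repressive complex 2. The sources used here do not give how long cells stayed in N2B27 without the inhibitor, so the inhibitor and the time since PXGL cannot be told apart. Nor do they say whether the 3 libraries of a group come from different cultures, and the p-values then reflect library-to-library spread, which may be technical. Libraries held 14482124 to 18358519 counts, which puts a floor of 3 counts at 0.164 to 0.211 CPM, the unit of TMM-scaled levels used throughout. EZH2 mRNA itself averaged 82.5 ± 3.61 CPM with the inhibitor, 72.0 ± 2.86 CPM in N2B27 and 78.3 ± 1.49 CPM in PXGL. It was called slightly higher with the inhibitor than in N2B27 (log2 0.20, edgeR adjusted p = 0.0415).

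The naive state is the culture form nearest to the epiblast before implantation, and it is known for transcripts that other tissues use for specialised work. Several of these genes are textbook markers of such tissues. BTK is a cytoplasmic tyrosine kinase of B cell receptor signalling, ITGAM encodes the integrin chain CD11b of myeloid cells, and SPIC is an ETS factor of the PU.1 subfamily that mouse red pulp macrophages need. SLC12A3 is the thiazide-sensitive sodium chloride cotransporter of the distal convoluted tubule, and ATP6V1B1 is the B subunit isoform of the vacuolar proton pump in kidney intercalated cells and the inner ear. OLAH is a thioesterase that ends fatty acid chains early, PRAME is a cancer-testis antigen that serves CUL2 ubiquitin ligases as a substrate receptor, and FAM151A is named here without a role.

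With EPZ-6438, 4 of the 8 genes were higher than in N2B27 alone: FAM151A, SLC12A3, ATP6V1B1 and ITGAM. The other 4, OLAH, BTK, PRAME and SPIC, did not pass the test. The calls of ITGAM and ATP6V1B1 were fragile, holding in 9 of 15 and 10 of 14 alternative fits. The regain was small against the starting level, since the inhibitor cultures held between 1.55% and 7.03% of the mean PXGL level of each gene and N2B27 held between 1.13% and 7.05%. Over all 15179 genes tested, 14.2% were called higher with the inhibitor, by edgeR's quasi-likelihood test at an adjusted p under 0.05. In the same 4 genes all inhibitor libraries lay above all N2B27 libraries, as in 23.9% of all tested genes. In all 8 genes, as their choice implies, the PXGL libraries lay above the other 6, which held for 23.3% of all tested genes. The N2B27 libraries served both in the choice of the genes and in this comparison, so the count is not independent of that choice. No library holds an earlier time of the inhibitor cultures. Regain, rise and increase here mean a higher level with the inhibitor than in N2B27. Renewed expression and a smaller loss cannot be told apart. In bulk RNA, fewer cells with a transcript and less transcript per cell cannot be told apart.

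The sequences just upstream of the 4 genes called higher are shown because these genes passed the same test. They come from RefSeq on GRCh38.p14, which had entries for 7 of the 8 genes and none for OLAH. Each is the 250 bases before the annotated start, in the direction of transcription, at chr16:56864957-56865206 on the plus strand for SLC12A3, chr1:54623526-54623775 on the minus strand for FAM151A, chr2:70935650-70935899 on the plus strand for ATP6V1B1 and chr16:31259725-31259974 on the plus strand for ITGAM. Capitals mark matches, on either strand, to any of 6 motifs: AP-2 (GCCNNNGGC), STAT (TTCNNNGAA), octamer (ATGCAAAT), TATA box (TATAAA), PU box (GAGGAAGT) and a KLF motif (CACACCC). No marked matches overlapped.
SLC12A3: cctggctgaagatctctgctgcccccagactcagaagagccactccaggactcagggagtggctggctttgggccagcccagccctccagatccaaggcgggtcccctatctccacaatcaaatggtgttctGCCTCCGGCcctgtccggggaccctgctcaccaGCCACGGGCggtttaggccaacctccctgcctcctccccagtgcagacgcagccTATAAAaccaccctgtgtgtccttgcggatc
FAM151A: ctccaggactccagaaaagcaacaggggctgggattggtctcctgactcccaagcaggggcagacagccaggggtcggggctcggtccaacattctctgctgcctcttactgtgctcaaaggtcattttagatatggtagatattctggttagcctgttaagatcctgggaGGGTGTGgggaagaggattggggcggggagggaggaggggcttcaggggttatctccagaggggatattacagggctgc
ATP6V1B1: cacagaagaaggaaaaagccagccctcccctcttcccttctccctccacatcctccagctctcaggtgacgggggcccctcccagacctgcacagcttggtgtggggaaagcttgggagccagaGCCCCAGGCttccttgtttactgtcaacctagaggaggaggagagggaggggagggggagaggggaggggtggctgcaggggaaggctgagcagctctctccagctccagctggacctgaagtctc
ITGAM: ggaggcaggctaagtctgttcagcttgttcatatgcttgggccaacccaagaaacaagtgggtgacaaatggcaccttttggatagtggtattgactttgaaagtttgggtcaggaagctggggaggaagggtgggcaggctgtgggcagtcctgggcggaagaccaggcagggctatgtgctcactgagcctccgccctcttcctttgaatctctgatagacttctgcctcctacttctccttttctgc
The SLC12A3 window held 2 AP-2 matches and 1 TATA box match, the ATP6V1B1 window 1 AP-2 match and the FAM151A window 1 KLF match, and in the ITGAM window none of these letters occurred. Among the genes that did not pass, BTK had 1 AP-2 match and 2 PU box matches over its starts, PRAME had 2 PU box matches and 1 STAT match over its starts, and SPIC had none, so AP-2 letters were found in both sets. Among 35114 RefSeq windows of the same length, AP-2 letters occurred in 19.8%, TATA box letters in 10.7%, KLF letters in 6.63%, PU box letters in 2.17%, STAT letters in 6.57% and octamer letters in 1.63%. All 4 windows held fewer CpG, the dinucleotide that is dense in CpG islands, than the median window, SLC12A3 by the least: SLC12A3 had 7, FAM151A 3, ATP6V1B1 1 and ITGAM 2, where the median window had 11. Of the genes that did not pass, SPIC had 1, the 3 PRAME starts had 9, 8 and 4, and the 2 BTK starts had 24 and 2. The CpG counts of both sets overlapped. This comparison cannot decide whether CpG density goes with the response. OLAH had no entry, and the intervals of BTK, PRAME and SPIC, given below, were too wide to show that these genes did not respond.

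SLC12A3 (ENSG00000070915.9, chr16:56865207-56915850, hg38, plus strand) had the largest fold change of the 8. Its level was 3.02, 4.26 and 2.03 CPM in the inhibitor libraries, 0.557, 0.492 and 0.533 CPM in N2B27 and 42.6, 50.9 and 46.4 CPM in PXGL. The groups did not overlap, and the inhibitor libraries varied more among themselves than the N2B27 libraries did. The fold change of the inhibitor over N2B27 was 5.86 (log2 2.55, SE 0.32, edgeR adjusted p = 1.64e-05), and the gene was higher in 3 of 3 inhibitor libraries than in any N2B27 library. The inhibitor cultures still held only 6.66% ± 2.39 of the PXGL mean, against 1.13% ± 0.0704 in N2B27 (SD, n = 3 each).

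FAM151A (ENSG00000162391.11, chr1:54609182-54623556, hg38, minus strand) was the most abundant of the 8 in PXGL, also per kb of exon. It had 26.4, 28.2 and 27.8 CPM with the inhibitor, 8.63, 4.99 and 7.60 CPM in N2B27 and 453.7, 360.9 and 357.8 CPM in PXGL. All inhibitor libraries lay close together and above all N2B27 libraries. It was 3.87-fold higher with the inhibitor (log2 1.95, SE 0.15, edgeR adjusted p = 2.08e-07), from counts of 1267 over the inhibitor libraries and 309 over the N2B27 libraries. The level reached 7.03% ± 0.233 of the PXGL mean, against 1.81% ± 0.480 in N2B27. FAM151A shares 760 exon bases with ACOT11, an acyl-CoA thioesterase gene on the other strand, and its counts were not whole in 9 of 9 libraries. ACOT11 had 8.36 ± 0.240 CPM with the inhibitor, 7.45 ± 1.15 CPM in N2B27 and 20.1 ± 1.60 CPM in PXGL, and was not called with the inhibitor (edgeR adjusted p = 0.444). Its mean level was below that of FAM151A in PXGL and with the inhibitor but slightly above it in N2B27, and how reads of the shared bases were divided was not tested.

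ATP6V1B1 (ENSG00000116039.12, chr2:70935868-70965431, hg38, plus strand) was near the detection limit in N2B27 and higher with the inhibitor. It had 12, 5 and 15 counts in the inhibitor libraries (0.805, 0.304 and 1.02 CPM), 4, 3 and 2 counts in N2B27 (0.279, 0.211 and 0.133 CPM) and 284, 300 and 243 counts in PXGL (15.6, 16.4 and 13.5 CPM). The groups did not overlap, although inhibitor replicate 2 stood just above the highest N2B27 library. The increase with the inhibitor was 3.29-fold (log2 1.72, SE 0.52, edgeR adjusted p = 0.0234). The call ended without N2B27 replicate 2 or 3 (adjusted p = 0.0652 and 0.0973, edgeR) or inhibitor replicate 1 or 3 (0.0777 and 0.117), and with only these 2 groups the gene fell below the count filter. It shares 1676 exon bases with VAX2, an eye homeobox gene on the same strand that had 0.0426 ± 0.0371 CPM with the inhibitor, 0.135 ± 0.176 CPM in N2B27 and 0.570 ± 0.288 CPM in PXGL. ATP6V1B1 counts were not whole in 3 of 9 libraries, and the division of reads over the shared bases was not tested.

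ITGAM (ENSG00000169896.17, chr16:31259967-31332892, hg38, plus strand) had 15, 12 and 11 counts in the inhibitor libraries (1.01, 0.730 and 0.746 CPM). N2B27 libraries had 3, 8 and 2 counts (0.209, 0.563 and 0.133 CPM), and PXGL libraries had 255, 312 and 327 (14.0, 17.1 and 18.2 CPM). Every inhibitor library was above every N2B27 library, with N2B27 replicate 2 the nearest. The increase was 2.72-fold (log2 1.44, SE 0.46, edgeR adjusted p = 0.0283). This call ended without N2B27 replicate 1 or 3 (adjusted p = 0.108 and 0.128, edgeR), without inhibitor replicate 1, 2 or 3 (0.103, 0.0504 and 0.0529) and in a fit of only these 2 groups (0.0588), and without N2B27 replicate 2 the log2 fold change was 2.22.

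**Figure D1:**
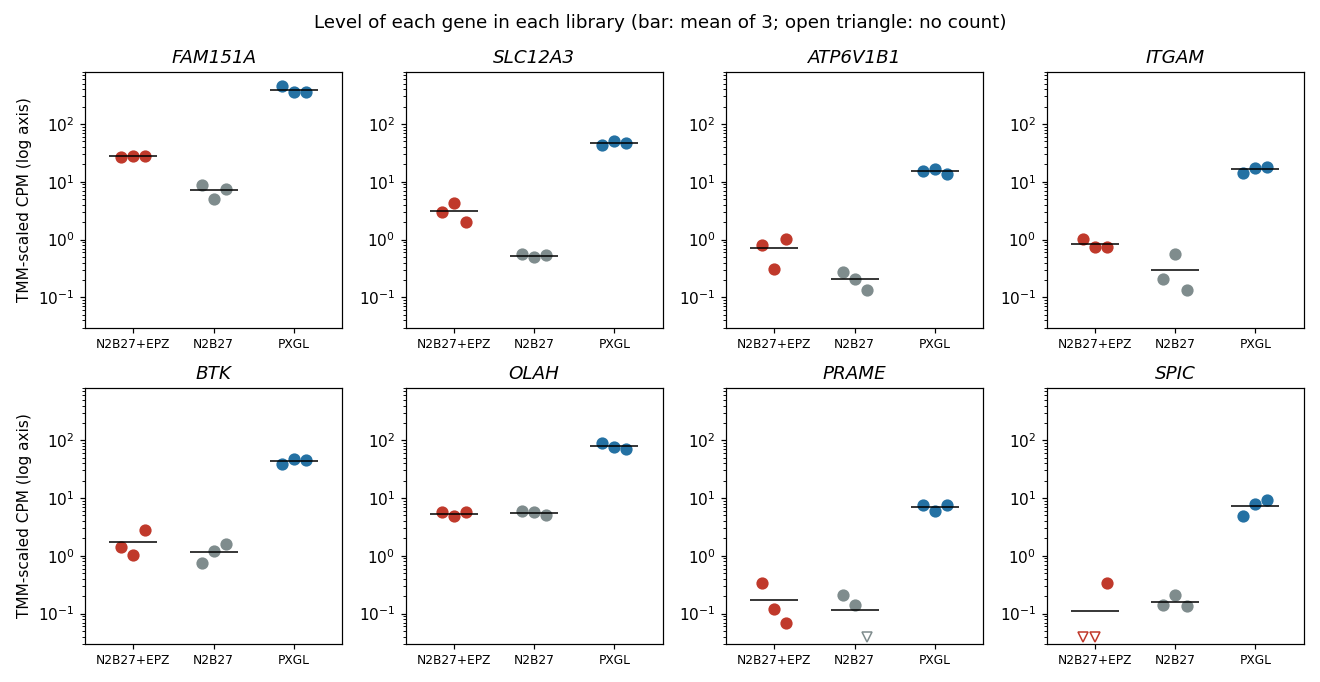
TMM-scaled CPM on a log axis for each of the 8 genes in the 3 libraries of N2B27 with EPZ-6438, of N2B27 and of PXGL, with a bar at each group mean and open triangles for libraries without a count. In all 8 panels the PXGL libraries lie above the other 6 libraries, and in the 4 panels of the upper row the inhibitor libraries lie above the N2B27 libraries.

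OLAH (ENSG00000152463.14, chr10:15032227-15073852, hg38, plus strand) was lost less far than the others. It had 5.70, 4.80 and 5.63 CPM with the inhibitor, 5.92, 5.63 and 5.13 CPM in N2B27 and 89.6, 77.0 and 69.9 CPM in PXGL. The inhibitor and N2B27 libraries overlapped. The log2 fold change with the inhibitor was -0.05 (SE 0.15, edgeR adjusted p = 0.848), with an interval of -0.37 to 0.27. With 247 counts over the inhibitor libraries and 242 over the N2B27 libraries, that interval leaves out a change as large as the one of FAM151A, whose own interval was 1.63 to 2.28. The difference between the 2 genes was not itself tested.

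BTK (ENSG00000010671.15, chrX:101349447-101390796, hg38, minus strand) had 1.41, 1.03 and 2.85 CPM with the inhibitor, 0.766, 1.20 and 1.60 CPM in N2B27 and 38.8, 47.1 and 45.2 CPM in PXGL. The inhibitor and N2B27 libraries overlapped, and inhibitor replicate 3 was the highest of the 6. The log2 fold change was 0.54 (interval -0.21 to 1.30, edgeR adjusted p = 0.290), and the difference between BTK and the genes that rose was not itself tested. The start of BTK lies 28 bases from that of RPL36A, a ribosomal protein gene read in the other direction. RPL36A had 321 ± 22.9 CPM with the inhibitor, 260.5 ± 8.91 CPM in N2B27 and 354 ± 49.7 CPM in PXGL, a log2 difference of N2B27 to PXGL of -0.44, where that of BTK was -5.19. RPL36A was called higher with the inhibitor (log2 0.30, edgeR adjusted p = 0.0175). BTK was not called, but its interval includes that value, so the 2 genes are not shown to differ in response.

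PRAME and SPIC were at the limit of detection outside PXGL. PRAME (ENSG00000185686.17, chr22:22547701-22559361, hg38, minus strand) had 5, 2 and 1 counts with the inhibitor, 3, 2 and 0 counts in N2B27 and 141, 111 and 136 counts in PXGL. The ratio of the inhibitor to N2B27 was 1.51 with an exact counting interval of 0.436 to 5.88 (edgeR adjusted p = 0.671). SPIC (ENSG00000166211.7, chr12:101475421-101486997, hg38, plus strand) had 0, 0 and 5 counts with the inhibitor, 2, 3 and 2 counts in N2B27 and 90, 143 and 165 counts in PXGL. Its ratio was 0.675 with a counting interval of 0.169 to 2.47 (edgeR adjusted p = 0.751). All SPIC counts of the inhibitor group came from replicate 3. For neither gene was a difference detectable at this depth, and neither an increase nor a decrease by a factor of 2 lies outside its interval.

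**Figure D2:**
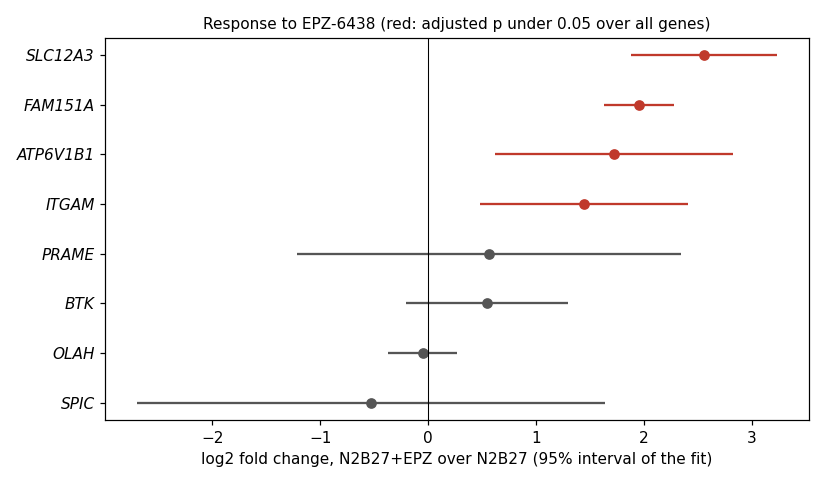
Log2 fold change of N2B27 with EPZ-6438 over N2B27 for the 8 genes, as points with the 95% interval of the edgeR fit, in red where the adjusted p over all genes was under 0.05. SLC12A3, FAM151A, ATP6V1B1 and ITGAM lie above 0, the interval of OLAH is narrow around 0, and those of PRAME and SPIC, which rest on 13 and 12 counts in the 2 groups together, are wide.

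As a description, the loss in N2B27 against PXGL was deepest for SLC12A3, at 87.1-fold lower (log2 -6.44, SE 0.23). ATP6V1B1 was 70.8-fold lower, PRAME 58.1-fold, FAM151A 55.1-fold, ITGAM 53.6-fold, SPIC 43.4-fold, BTK 36.4-fold and OLAH 14.2-fold (log2 -3.82, SE 0.12). Without N2B27 replicate 2 the log2 difference of ITGAM was -6.53, against -5.74 with it, and without N2B27 replicate 1 that of PRAME was -6.55, against -5.86. The 8 genes ranked between 9 and 77 among the largest decreases of the 15179 genes tested. In that contrast 28.7% of all genes were called lower, and nothing is read from this for genes that were chosen by it. All 8 passed the low-count filter, which their PXGL libraries alone would satisfy.

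Expressed as a share of the PXGL mean, OLAH kept the most in N2B27 and FAM151A the most with the inhibitor. With the inhibitor, ITGAM reached 5.04% ± 0.946, ATP6V1B1 4.67% ± 2.41 and BTK 4.04% ± 2.19, and OLAH was at 6.82% ± 0.632. PRAME was at 2.46% ± 1.99 and SPIC at 1.55% ± 2.68. In N2B27, OLAH held 7.05% ± 0.502, BTK 2.72% ± 0.955, SPIC 2.20% ± 0.591 and ITGAM 1.84% ± 1.40 (SD, n = 3 each). PRAME held 1.64% ± 1.496 and ATP6V1B1 1.37% ± 0.479. In the order of levels with the inhibitor, FAM151A, OLAH and SLC12A3 differ from each other by less than their spread, as do ITGAM, ATP6V1B1 and BTK. The 3 PXGL libraries themselves differed by 1.20-fold to 1.86-fold between the lowest and the highest, most for SPIC. PXGL replicate 1 was the lowest of the 3 for SPIC, BTK, ITGAM and SLC12A3 and the highest for FAM151A, OLAH and PRAME.

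**Figure D3:**
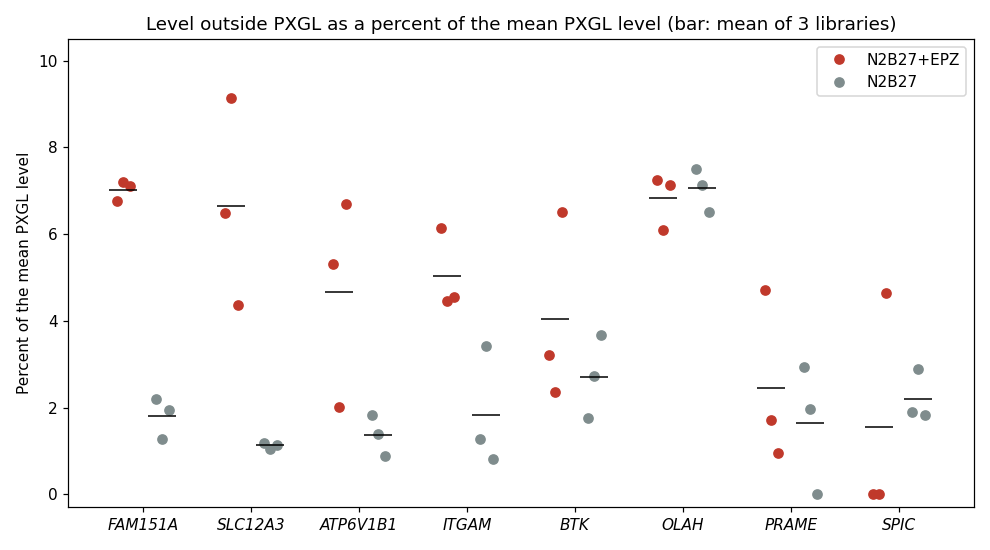
Level of each gene in the libraries of N2B27 with EPZ-6438 and of N2B27 as a percent of its mean in PXGL, with a bar at the mean of 3 libraries. The inhibitor libraries of FAM151A, SLC12A3, ATP6V1B1 and ITGAM sit above those of N2B27, those of OLAH overlap near 7.05%, and every point stays under 10 percent.

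Other genes with a large loss give the context for this regain. Apart from the 8, 25 genes were lost at least as far as OLAH and had 5 CPM or more in PXGL, limits set after the data were seen. Of these 25, 14 were called higher with the inhibitor (56%), against 4 of the 8 genes. They carry the same bias from shared N2B27 libraries. They kept more in N2B27 than most of the 8. Their median level was 12.2% of PXGL with the inhibitor, against 5.11% in N2B27, where the medians of the 8 were 4.86% and 1.82%, so a lower level with the inhibitor is not a smaller fold regain. With the inhibitor the 25 ranged over 3.16% to 93.8%, and 10 of 25 stayed under 10 percent of PXGL as all 8 genes did. TBX3, a T-box factor, stood at 93.8% of its PXGL level with the inhibitor, and BMP2, a signalling ligand, at 73.1%. HAVCR1, a kidney injury marker and phosphatidylserine receptor, reached 15.4 CPM with the inhibitor, against 4.18 CPM in N2B27 and 73.8 CPM in PXGL (edgeR adjusted p = 6.74e-07). NLRC4, an inflammasome gene, had 0.212 CPM with the inhibitor, 0.258 CPM in N2B27 and 6.71 CPM in PXGL and did not pass (edgeR adjusted p = 0.897).

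**Figure D4:**
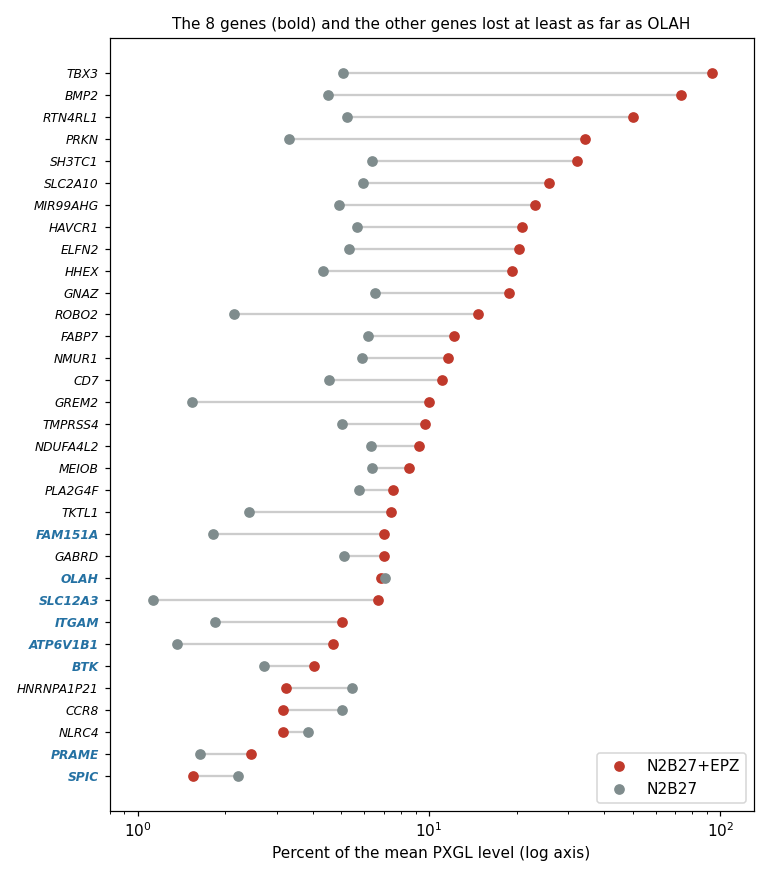
Level in N2B27 with EPZ-6438 and in N2B27 as a percent of the PXGL mean, on a log axis, for the 8 genes (bold) and the 25 other genes lost at least as far as OLAH. With the inhibitor the 8 genes lie between 1.55% and 7.03% of PXGL, and TBX3 and BMP2 lie at 93.8% and 73.1%.

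The close relatives of these genes had mixed patterns. Of the 23 paralogues and partners listed, 17 were tested, of which 5 rose with the inhibitor, 2 fell and 10 did not pass; the median log2 fold change was 0.24, where that of all tested genes was 0.01. Over all tested genes 14.2% were called higher, 10.6% lower and 24.7% in either direction, and the counts of this and the following lists stand beside those shares. ATP6V1B2, the B subunit isoform that most cells use, had 23.0 ± 0.198 CPM per kb of exon with the inhibitor, 17.6 ± 0.711 in N2B27 and 17.3 ± 0.306 in PXGL. On the same scale ATP6V1B1 had 0.264 ± 0.136, 0.0772 ± 0.0270 and 5.64 ± 0.563 in these cultures, so the ubiquitous isoform exceeded it in all 3. ATP6V1B2 rose 1.30-fold with the inhibitor (edgeR adjusted p = 0.000124). It was also the 1 gene to rise among 24 pump subunits and accessory proteins, of which 22 were tested, 3 fell and 18 did not pass. Those that fell were ATP6V1G1 by 1.33-fold, the catalytic subunit ATP6V1A by 1.18-fold and ATP6V0A1 by 1.26-fold (edgeR adjusted p = 0.00222, 0.0126 and 0.0440). The partner isoforms of intercalated cells were scarce: ATP6V1G3 had no count in any group, and ATP6V0A4 had 1.76 CPM with the inhibitor, 2.28 CPM in N2B27 and 0.697 CPM in PXGL.

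Among cation chloride cotransporters, SLC12A7, a potassium chloride cotransporter, followed the same order of cultures as SLC12A3 at a smaller scale. It had 57.8 ± 3.14 CPM with the inhibitor, 28.4 ± 2.14 CPM in N2B27 and 63.7 ± 3.93 CPM in PXGL, a 2.03-fold rise with the inhibitor (edgeR adjusted p = 1.99e-07). SLC12A2, the ubiquitous sodium potassium chloride cotransporter, rose 1.33-fold and SLC12A4 rose 1.18-fold (edgeR adjusted p = 0.00177 and 0.0373). SLC12A1, the kidney relative of SLC12A3, had no count with the inhibitor, 4 counts over N2B27 and 2 over PXGL.

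The blood cell genes lacked their usual company. ITGB2, the beta chain that ITGAM needs to reach the surface, had 0.157 ± 0.0809 CPM per kb with the inhibitor, 0.0503 ± 0.0159 in N2B27 and 0.0969 ± 0.0914 in PXGL, while ITGAM had 0.145 ± 0.0273, 0.0530 ± 0.0403 and 2.89 ± 0.381. ITGAX, the integrin gene next to ITGAM at a distance of 22242 bases, had 0.688 CPM with the inhibitor, 0.300 CPM in N2B27 and 0.806 CPM in PXGL. SPI1, which encodes PU.1, had no count with the inhibitor or in PXGL and 1 count in N2B27. SPIB, the lymphoid member of that subfamily, had 2.16 ± 0.415 CPM with the inhibitor, 5.78 ± 0.436 CPM in N2B27 and 0.696 ± 0.225 CPM in PXGL, and fell 2.67-fold with the inhibitor (edgeR adjusted p = 0.000601). TEC, a kinase of the BTK family, stayed between 15.1 and 19.3 CPM in all 3 group means. TXK, of the same family, had 2.12 ± 0.284 CPM with the inhibitor, 0.752 ± 0.408 CPM in N2B27 and 2.20 ± 0.134 CPM in PXGL. It rose 2.79-fold with the inhibitor (edgeR adjusted p = 0.0102).

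**Figure D5:**
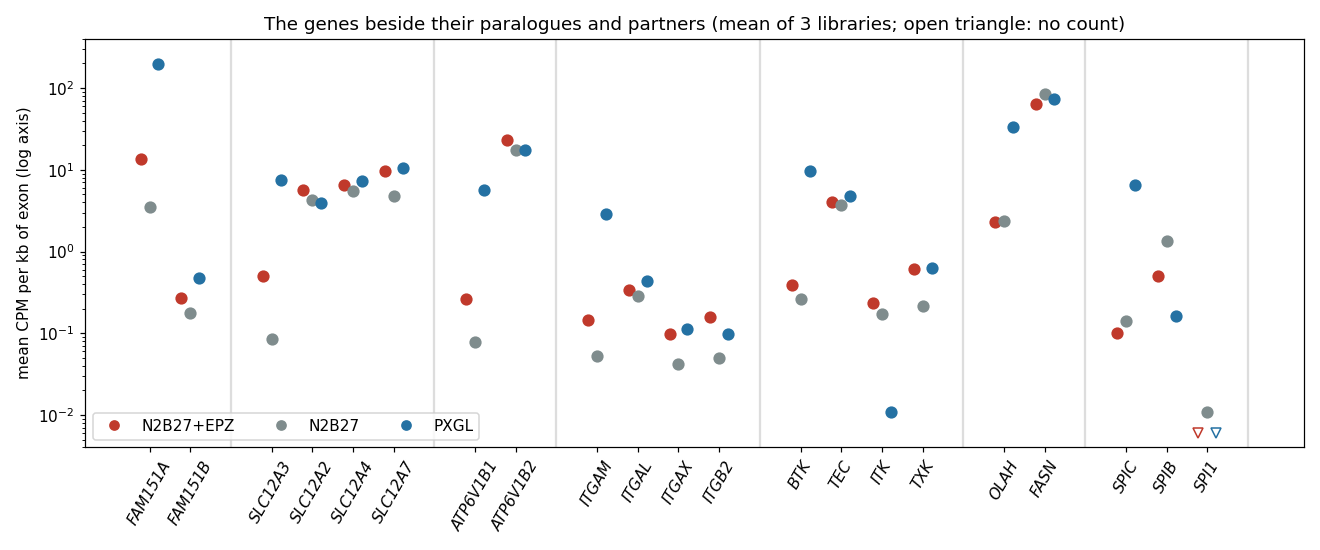
Mean CPM per kb of exon on a log axis for each gene beside paralogues and partners, in N2B27 with EPZ-6438, in N2B27 and in PXGL, with open triangles for groups without a count. ATP6V1B2 and TEC lie at close levels in the 3 cultures while ATP6V1B1 and BTK are high in PXGL alone, and ITGB2 lies under 0.2 in all 3.

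Of 15 BTK signalling genes 13 were tested, with 1 rising, 3 falling and 9 not passing. SYK, the kinase upstream of BTK, had 30.9 ± 3.14 CPM with the inhibitor, 19.3 ± 1.69 CPM in N2B27 and 45.0 ± 2.33 CPM in PXGL and rose 1.60-fold (edgeR adjusted p = 0.000111). PLCG2, a phospholipase that BTK phosphorylates, had 7.64 ± 1.53 CPM, 5.22 ± 1.11 CPM and 20.9 ± 3.29 CPM in these cultures and did not pass (edgeR adjusted p = 0.0517). PIK3CD, a lipid kinase subunit of leukocytes, fell 1.72-fold (edgeR adjusted p = 0.000333), and PIK3AP1, a B cell adaptor, and IBTK, a BTK inhibitor, fell 1.29-fold and 1.18-fold (0.00232 and 0.0266). For OLAH, the partner enzyme FASN fell 1.32-fold, to 597 ± 14.96 CPM with the inhibitor against 785 ± 11.2 CPM in N2B27, with 684 ± 55.0 CPM in PXGL (edgeR adjusted p = 0.000251). CUL2, the ligase scaffold that PRAME serves, had 85.5 CPM with the inhibitor, 82.5 CPM in N2B27 and 70.4 CPM in PXGL (edgeR adjusted p = 0.621 for the inhibitor).

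Marker lists of the tissues in which these genes are best known were low or mixed. The 16 myeloid markers summed to 2.49 to 4.29 CPM per library with the inhibitor, 1.27 to 1.95 CPM in N2B27 and 3.11 to 4.11 CPM in PXGL. Of them 1, ITGB2, passed the filter and it was not called (edgeR adjusted p = 0.0938). PTPRC, the leukocyte common antigen, had 4 counts over the inhibitor libraries, no count in N2B27 and 1 in PXGL. The 10 B cell markers summed to 16.8 to 21.8 CPM with the inhibitor, 14.2 to 15.2 CPM in N2B27 and 22.6 to 30.0 CPM in PXGL, and PAX5 made up the largest share of each group. Of 5 tested, PAX5, a B lineage factor, rose 1.74-fold to 12.5 ± 2.21 CPM, CD79B fell 1.97-fold to 1.32 ± 0.176 CPM and 3 did not pass (edgeR adjusted p = 0.00967 and 0.0262).

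The 28 renal tubule markers summed to 277 to 285 CPM with the inhibitor, 242 to 261 CPM in N2B27 and 313 to 333 CPM in PXGL. The epithelial sodium channel gene SCNN1A gave most of this, with 172 ± 3.05 CPM, 169 ± 4.93 CPM and 196 ± 9.90 CPM in these cultures. Of 9 tested, 2 rose and 7 did not pass. AQP3, a water and glycerol channel, rose 2.50-fold to 11.5 ± 0.328 CPM against 4.59 ± 1.18 CPM in N2B27, with 30.0 ± 2.83 CPM in PXGL. LRP2, the endocytic receptor megalin, rose 5.64-fold to 9.62 ± 0.856 CPM against 1.70 ± 1.03 CPM in N2B27, with 0.955 ± 0.551 CPM in PXGL (edgeR adjusted p = 1.29e-05 and 0.000121). Among those that did not pass, CALB1 had 55.4 CPM with the inhibitor, 46.4 CPM in N2B27 and 53.03 CPM in PXGL. KLHL3, which also did not pass, had 23.5, 22.3 and 38.4 CPM in the same order. UMOD, the marker of the thick ascending limb and so of another segment than SLC12A3, had no count in any group. Of the 28 markers, 7 had no count with the inhibitor, 8 in N2B27 and 6 in PXGL, so the list held both abundant and absent markers.

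Markers of other lineages that the cultures could hold were in part higher with the inhibitor. The 12 hypoblast markers summed to 538 to 555 CPM with the inhibitor, 329 to 336 CPM in N2B27 and 198 to 251 CPM in PXGL, with 6 of 8 tested rising, APOB falling and PDGFRA not passing. Most of the sum came from the basement membrane genes LAMB1, at 354 ± 9.72, 212 ± 2.02 and 155 ± 18.3 CPM in these cultures, and COL4A1, at 128 ± 2.90, 85.6 ± 4.29 and 24.0 ± 4.44 CPM. Among the other markers GATA6 had 7.97 ± 1.65 CPM with the inhibitor, 0.731 ± 0.269 CPM in N2B27 and 0.312 ± 0.0331 CPM in PXGL, while HNF4A, at 21.0 ± 0.818, 8.30 ± 0.319 and 29.4 ± 4.27 CPM, and BMP2, which is also one of the 25 lost genes, were highest in PXGL. The 12 trophectoderm markers summed to 33.1 to 43.1 CPM, 14.5 to 16.0 CPM and 8.28 to 12.1 CPM in these cultures, with HAND1, CDX2 and GATA3 rising of 6 tested and 3 not passing. In both lists the sum was lowest in PXGL. The part of either lineage in the regain of the 8 genes was not tested. Of 24 cancer-testis antigens, the class of PRAME, 8 were tested, 2 rose, 3 fell and 3 did not pass. LUZP4 was highest of those that rose, at 65.6 ± 1.44 CPM with the inhibitor, 52.0 ± 4.31 CPM in N2B27 and 96.6 ± 7.12 CPM in PXGL (edgeR adjusted p = 0.00508). MAGEB2 also rose, and DDX43, MAGEA4 and CTCFL fell. Of 28 genes of the naive state, 12 were higher with the inhibitor, 8 were lower and 8 missed the threshold. The smallest adjusted p belonged to TBX3 (6.18e-11, edgeR). The next were the placental-type alkaline phosphatase genes ALPG and ALPP, near-identical copies whose reads may be split between them. ALPG had 592 ± 14.1 CPM with the inhibitor, 233 ± 4.85 CPM in N2B27 and 1558 ± 34.5 CPM in PXGL, and ALPP had 86.1 ± 2.08, 37.4 ± 1.83 and 184 ± 4.34 CPM (edgeR adjusted p = 1.24e-10 and 1.80e-09). All 3 rose, whereas FGF4 fell, at 49.5 ± 4.19 CPM with the inhibitor, 101 ± 0.794 CPM in N2B27 and 232 ± 14.5 CPM in PXGL (edgeR adjusted p = 2.77e-08).

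Among the neighbours on the chromosome some followed the genes and some did not. The nearest coding gene to PRAME, ZNF280A at 27431 bases, had 11.9 ± 2.22 CPM with the inhibitor, 2.18 ± 0.293 CPM in N2B27 and 7.61 ± 1.14 CPM in PXGL, and rose with the inhibitor (log2 2.44, edgeR adjusted p = 2.27e-07). PRAME was not called, and the difference between these 2 genes was not tested. Beside SLC12A3, NUP93 had 117 ± 3.05, 126 ± 2.52 and 117 ± 1.67 CPM in the same order and HERPUD1 had 41.4 ± 0.580, 29.8 ± 2.39 and 25.3 ± 2.90 CPM, the second of which was called higher with the inhibitor (log2 0.47, edgeR adjusted p = 0.00171). ACBD7, which lies 3671 bases from OLAH, had 10.1 ± 0.756, 12.2 ± 1.22 and 10.4 ± 1.12 CPM. MROH7, next to FAM151A, had 0.0426 CPM with the inhibitor, no count in N2B27 and 1.49 ± 1.18 CPM in PXGL, and so was also nearly restricted to PXGL, at a low level.

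Over the 9 libraries, the coding gene with the pattern most like SLC12A3 was FAM151A (Pearson r = 0.991 of log2 CPM), followed by SLC9A3, a sodium proton exchanger of kidney and gut (r = 0.991). SLC9A3 had 14.5 CPM with the inhibitor, 8.62 CPM in N2B27 and 37.1 CPM in PXGL. For FAM151A the nearest was TKTL1, a transketolase relative, at r = 0.995, with 2.31 CPM with the inhibitor, 0.757 CPM in N2B27 and 31.3 CPM in PXGL. For OLAH it was FXYD6, a regulator of the sodium pump, at r = 0.993, with 14.4, 16.7 and 76.0 CPM in the same order of cultures. BTK was nearest to ACSF2 (r = 0.995), ITGAM to TMEM144 (0.989), PRAME to HES4 (0.990), ATP6V1B1 to TMEM117 (0.991) and SPIC to MYH7B (0.988). These values rest on the step between PXGL and the other cultures that all points share, and between 38 and 93 of 1122 candidate genes exceeded r = 0.95 for each of the 8.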

How the data were processed

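The authors deposited 1 table of expected counts per gene symbol, which need not be whole; the tools named are DESeq2, STAR 2.7.6a and Trim Galore, and the build is hg38, per the submitters' processing notes. Sources used here give neither the counting program nor its annotation or strandedness, and overlapping genes may therefore share reads. Per the labels' protocols, libraries were made from Trizol RNA with ribosomal depletion, while the molecule label names polyA RNA.

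Counts were rounded and fitted with edgeR 4.0.16 (R 4.3.3; filterByExpr, TMM, robust quasi-likelihood fit, all 9 libraries, group as the only term), with Benjamini-Hochberg adjustment over 15179 genes at 0.05. SE is the log2 fold change over the square root of the quasi-F, and intervals are 95%; floors of 3 counts and counting intervals cover counting error only. Within each group every pair of libraries differed beyond counting noise (lowest chi-square over its degrees of freedom, 2.57). Alternatives were DESeq2 1.42.0 size factors and test, 2 other count filters, a fit of 2 groups, the replicate number as a block, and each library left out. The script was tested on simulated data. Coordinates and exon lengths are from GENCODE 29 and upstream sequences from RefSeq (GRCh38.p14).

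The 8 genes, the 10 lists and the rules were chosen with earlier results of these data known. The named genes are the 8, their relatives and partners, up to 4 called genes per list with the smallest adjusted p, the most abundant markers, the 2 coding genes of most similar pattern for each (log2 CPM with a prior count of 2, group means spanning 2 or more on the log2 scale), and neighbours named by position within 100 kb. The examples among the 25 other lost genes, and PTPRC, UMOD, CUL2 and ATP6V1G3 as markers at or near 0 or partners, were picked after their values were seen.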

Additional observations from a re-analysis of the deposited data

How the results depend on the processing

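The calls of SLC12A3 and FAM151A held under all 15 alternatives, with log2 fold changes of 2.24 to 2.77 and 1.76 to 2.12. ITGAM was past the threshold in 9 of 15 and ATP6V1B1 in 10 of the 14 that tested it, at adjusted p up to 0.128 and 0.117. The number of the 8 genes called higher was 2 in a fit of only the 2 groups and 2 to 4 when 1 library was left out. The count of all genes called, 3752, was 5641 with only the 2 groups and 2762 to 5770 when 1 library was left out, the highest without PXGL replicate 1. With only the 2 groups, 9 pump subunits and 4 renal markers were called, and with no count filter 1 myeloid marker and 2 cancer-testis antigens. Without 1 library, calls ranged from 2 to 10 pump subunits (10 without PXGL replicate 1, 2 without N2B27 replicate 2), 2 to 4 renal markers and 0 to 1 myeloid markers (4 and 1 without PXGL replicate 1), 0 to 3 B cell markers (0 without N2B27 replicate 3, 1 without N2B27 replicate 1 or any inhibitor library) and 2 to 5 cancer-testis antigens (2 or 3 without any N2B27 or inhibitor library or PXGL replicate 2). The cause was not tested. All 120 values of N2B27 against PXGL for the 8 genes stayed negative, and all 104 shares of the PXGL level stayed under 10 percent. With the replicate number as a block, 4 of the 8 genes and 3696 genes in all were called; deviations of same-numbered libraries correlated at -0.0256 to 0.0369, and 4 of 9 libraries correlated best with their own number, so the numbers were not taken as pairs. Depth limits PRAME and SPIC, and ATP6V1B1 and ITGAM in N2B27, to a few counts per library.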
